A study of Mus musculus with 22 samples.

Results

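Mouse embryonic stem cells (ESCs) lacking Ezh2 were compared with wild-type ESCs, both grown with LIF and the 2i inhibitors, in 4 RNA-seq libraries of the 22 in the series. The knockout libraries were the 2 of the group called KO10_S2iL (titled EZH2KO.10S2iL, knockout clone 10). The wild-type libraries were the 2 of the group called TG2A_S2iL (titled TG2A.NG.PB.S2iL). All 4 are given as E14, a male mouse ESC line, and the design describes the medium as serum with 2i and LIF. The knockout genotype is spelled Eeh2-null in the labels and was read as Ezh2. Libraries of the same clone without 2i were those of KO10_SL (n = 3). Those of wild-type cells without 2i, titled TG2A.NG.PB.ESC, were TG2A_ESC (n = 2). Both groups were used to set the change under 2i beside the change without it. Summed levels of some lists are also given for the same clone with Ezh2 rescued (KO10_SL_rescued, without 2i, n = 2), for other wild-type E14 ESCs in LIF medium (E14_ESC, n = 3), and for wild-type PrE stem cells of the line C57 in their own medium (C57_PrESC, n = 2). The knockout is 1 clone, so the loss of Ezh2 and any difference between that clone and the TG2A.NG.PB cells cannot be told apart. Nothing says that replicates came from separate cultures, so p-values measure the spread between libraries within groups, which may be technical and was pooled over all 22 libraries.

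Ezh2 is the main catalytic subunit of Polycomb repressive complex 2 (PRC2), which methylates lysine 27 of histone H3. The mark is recognised by Polycomb repressive complex 1 (PRC1), and both complexes sit at CpG-rich promoters of developmental regulators that ESCs keep at low levels. The 2i inhibitors block MEK, the kinase above ERK, and GSK3, which restrains Wnt signalling, and hold ESCs in the naive state, the state of the preimplantation epiblast. Naive cells can also give rise to primitive endoderm (PrE), the extraembryonic layer beside the epiblast, and a small fraction of cells in ESC cultures passes through a state that resembles the 2-cell embryo.

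Library totals were 17.6 and 17.2 M estimated counts in KO10_S2iL and 16.6 and 16.9 M in TG2A_S2iL. Reads were detected for 21686 and 21537 gene symbols in KO10_S2iL, against 19847 and 19895 in TG2A_S2iL, so about the same depth was spread over more genes in the knockout. The scaling factors also differed between the groups, at 1.131 and 1.128 in KO10_S2iL and 1.007 and 1.013 in TG2A_S2iL. Levels are given in CPM, the count as a share of the scaled library size, without correction for gene length. The defining ESC genes were present in both groups. Pou5f1, the gene of Oct4, stood at 716 and 690 CPM in KO10_S2iL and 996 and 973 CPM in TG2A_S2iL.

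The knockout was visible in its own gene. Ezh2 stood at 0.302 and 0 CPM in KO10_S2iL, the first value being 6 counts, and at 222 and 214 CPM in TG2A_S2iL. The log2 fold change, knockout over wild type, was -10.41 ± 0.29 (SE) with an adjusted p of 1.13e-12. Here and throughout, the test was the quasi-likelihood test of edgeR, p-values were adjusted by the Benjamini-Hochberg method over all 17547 tested genes, and a gene was called, or said to have risen or fallen, at an adjusted p below 0.05.

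Of the 17547 tested genes, 5263 were called (30.0%), 2754 upward (15.7%) and 2509 downward (14.3%). The 2 directions differed in size. At a change of at least 2-fold, 2018 genes were called up (11.5%) and 375 were called down (2.14%), and 2134 of the 2509 falls (85.1%) were smaller than 2-fold, against 736 of the 2754 rises (26.7%). Genes that rose at least 2-fold were mostly low in wild type: 1091 of the 2018 (54.1%) averaged under 1 CPM in TG2A_S2iL, against 4390 of all 17547 tested genes. Together those 2018 genes held 25100 and 25000 CPM in KO10_S2iL, against 6860 and 6780 CPM in TG2A_S2iL. The 375 genes that fell at least 2-fold held 5390 and 5480 CPM in KO10_S2iL, against 13600 and 13500 CPM in TG2A_S2iL. Both sets were chosen by their change in these same libraries, so the direction of each difference in sums was fixed by the choice. The median log2 fold change of all tested genes was 0.01, and in 76.4% of them the libraries of the groups did not overlap. In these bulk libraries a change in the number of cells that express a gene and a change in RNA per cell cannot be told apart.

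**Figure D1:**
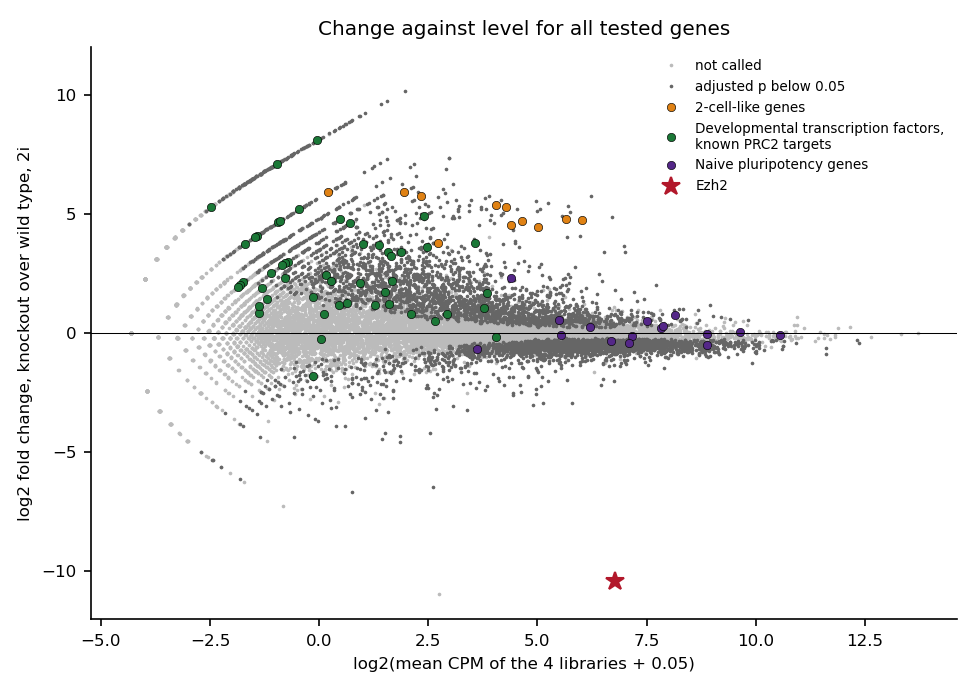
Each point is a tested gene, placed by its mean level over the 4 libraries (x axis, log2 of CPM + 0.05) and its log2 fold change, KO10_S2iL over TG2A_S2iL (y axis), with darker points for an adjusted p below 0.05. The 2-cell-like genes (orange) lie between 3.76 and 5.91, the developmental transcription factors (green) have a median of 2.24, and the naive pluripotency genes (purple) lie between -0.65 and 2.31 with a median of -0.0047.

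The number of called genes fell when 1 library was left out. It was 3053 and 3156 without KO10_S2iL replicate 1 or 2, and 2916 and 2847 without TG2A_S2iL replicate 1 or 2. In such fits the lone library is assumed to vary like the other groups. Fitting only the 4 libraries gave 9607 called of 15453 tested genes, in place of 5263 of 17547. Counts of list members with 1 library left out are given in that same order: KO10_S2iL replicate 1, KO10_S2iL replicate 2, TG2A_S2iL replicate 1, TG2A_S2iL replicate 2. Counts of list members in the full fit stand beside 15.7% called up and 14.3% called down over all tested genes. Those shares were lower with 1 library left out.

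Most partners of Ezh2 in the PRC2 core were lower in the knockout. Of the 6 core subunits, 5 fell and none rose, with Ezh2 itself among the 5. Eed, which binds the methylated histone and is needed for activity, had 97.3 and 98.5 CPM in KO10_S2iL and 162 and 167 CPM in TG2A_S2iL (log2 fold change -0.75 ± 0.16 SE, adjusted p = 0.00229). Rbbp4, a histone-binding subunit that PRC2 shares with other complexes, had 312 and 331 CPM in KO10_S2iL and 509 and 514 CPM in TG2A_S2iL (-0.67 ± 0.12 SE, adjusted p = 0.000647). In both genes the libraries of the groups did not overlap. Ezh1, the paralogue of Ezh2 with weaker methyltransferase activity, had 24.6 and 25.4 CPM in KO10_S2iL and 41.2 and 42.9 CPM in TG2A_S2iL. Its log2 fold change was -0.75 (adjusted p = 0.0127). That call ended without KO10_S2iL replicate 1 (adjusted p = 0.0713), KO10_S2iL replicate 2 (0.0567) or TG2A_S2iL replicate 2 (0.0649). Rbbp7, a paralogue of Rbbp4, had 219 and 224 CPM in KO10_S2iL and 314 and 334 CPM in TG2A_S2iL (-0.55, adjusted p = 0.0348), and its call ended with any library left out. The number of core subunits called down was then 3, 3, 4 and 3. Suz12, the scaffold of the complex, was not called at 349 and 389 CPM in KO10_S2iL and 275 and 301 CPM in TG2A_S2iL (0.36, adjusted p = 0.194).

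PRC1 subunits moved in both directions, 7 up and 4 down of 20. Bmi1, a Polycomb ring-finger subunit, had 36.3 and 35.8 CPM in KO10_S2iL and 14.2 and 17.2 CPM in TG2A_S2iL (log2 fold change 1.20 ± 0.18 SE, adjusted p = 0.000155). Cbx8, a chromodomain subunit that reads the histone mark, had 9.71 and 9.51 CPM in KO10_S2iL and 3.60 and 2.80 CPM in TG2A_S2iL (1.58 ± 0.32 SE, adjusted p = 0.00175). Among the Polyhomeotic subunits, Phc2 rose and Phc1 fell. Phc2 had 64.2 and 55.2 CPM in KO10_S2iL and 29.8 and 27.4 CPM in TG2A_S2iL (1.06, adjusted p = 1.92e-05). Phc1 had 177 and 182 CPM in KO10_S2iL and 292 and 295 CPM in TG2A_S2iL (-0.71, adjusted p = 3.09e-05). The 7 rises numbered 7, 6, 4 and 6, and the 4 falls 3, 2, 2 and 2, with 1 library left out.

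Genes of enzymes and associated proteins that act against Polycomb silencing fell or were not called. Of 14 such genes 6 fell and none rose, and the count stayed at 6 with each of the 4 libraries left out. Kdm6a, which removes methyl groups from lysine 27 of histone H3, had 28.6 and 28.5 CPM in KO10_S2iL and 49.5 and 56.2 CPM in TG2A_S2iL (log2 fold change -0.89 ± 0.12 SE, adjusted p = 0.000102). Nsd1, which methylates lysine 36 of the same histone, had 222 and 222 CPM in KO10_S2iL and 335 and 317 CPM in TG2A_S2iL (-0.56, adjusted p = 0.00214). Kmt2b and Asxl2 fell by 0.58 and 0.68 on the log2 scale.

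Among developmental transcription factors widely known as PRC2 targets, 54 were listed, 50 passed the filter on low counts, and 29 of these rose and none fell. The median log2 fold change of the 50 was 2.24. These genes were low in wild type, so passing the filter often rested on the knockout, and their count is a description. Summed over the list, levels were 198 and 201 CPM in KO10_S2iL and 66.0 and 67.3 CPM in TG2A_S2iL. The number called was 23, 19, 15 and 18 with 1 library left out. Pitx1, a homeodomain factor of hindlimb and pituitary, had 10.3 and 9.93 CPM in KO10_S2iL and 0.480 and 0.175 CPM in TG2A_S2iL (4.92 ± 0.67 SE, adjusted p = 8.50e-05). Pax9, a paired-box factor of pharyngeal pouches and teeth, had 1.76 and 1.91 CPM in KO10_S2iL and no counts in either TG2A_S2iL library, which makes it at least 20.7-fold higher when 3 counts over the wild-type group are taken as the floor (adjusted p = 0.000256). Six2, which maintains kidney progenitors, had 1.81 and 0.827 CPM in KO10_S2iL and 0.0600 and 0 CPM in TG2A_S2iL (5.19, adjusted p = 0.00196).

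The promoters of 3 genes that rose are shown as examples of different CpG content: Hoxd9 and Pax9 from the developmental regulators, and Zscan4c from the 2-cell-like genes. They do not stand for their groups. Each is the stretch of 250 bases before the RefSeq start on the plus strand of GRCm38.p6 (mm10), at chr2:74697513-74697762, chr12:56695221-56695470 and chr7:11005495-11005744. Capitals mark each CG, which reads the same on both strands.
Hoxd9: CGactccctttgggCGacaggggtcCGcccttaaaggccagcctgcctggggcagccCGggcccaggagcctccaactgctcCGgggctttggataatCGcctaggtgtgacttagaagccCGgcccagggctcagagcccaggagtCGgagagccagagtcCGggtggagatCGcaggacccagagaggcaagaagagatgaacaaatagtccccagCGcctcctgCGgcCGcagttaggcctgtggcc
Pax9: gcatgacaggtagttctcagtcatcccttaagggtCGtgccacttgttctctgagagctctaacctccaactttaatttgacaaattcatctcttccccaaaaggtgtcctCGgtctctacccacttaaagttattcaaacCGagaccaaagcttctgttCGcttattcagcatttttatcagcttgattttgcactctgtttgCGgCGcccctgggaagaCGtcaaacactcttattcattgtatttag
Zscan4c: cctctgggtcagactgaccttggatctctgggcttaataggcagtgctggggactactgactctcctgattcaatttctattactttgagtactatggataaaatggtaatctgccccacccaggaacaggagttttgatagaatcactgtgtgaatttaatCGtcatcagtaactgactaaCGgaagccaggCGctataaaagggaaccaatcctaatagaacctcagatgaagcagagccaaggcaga
The stretches hold 13, 7 and 3 CG for Hoxd9, Pax9 and Zscan4c. With the 50 bases after the start they hold 20, 11 and 4. The median was 7 over 32851 RefSeq windows of 300 bases, of which 34.6% hold at least 15, and 19 over the 12566 tested genes with a window, of which 65.2% do. Hoxd9 is thus close to the median of tested genes, and Pax9 and Zscan4c are below it. A comparison of CG content between sets of genes is void, because a window was found for only 71.6% of tested genes, below the 80% set as the minimum.

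Hox genes, which set position along the body axis, rose in all 4 clusters, but unevenly. Cluster A had 6 called of 10 tested, cluster B 4 of 7, cluster C 1 of 9 and cluster D 7 of 7, all upward. Below the filter were 6 of the 39 listed Hox genes. Many Hox genes were low in wild type, so passing the filter could rest on other groups such as the knockout. Genes this low in wild type could hardly be called down, so the counts are a description. Summed levels of cluster D were 22.1 and 23.4 CPM in KO10_S2iL and 1.68 and 1.75 CPM in TG2A_S2iL. Those of cluster C were 39.2 and 41.8 CPM in KO10_S2iL and 25.7 and 27.6 CPM in TG2A_S2iL. Without 2i, 8, 5, 7 and 7 tested genes of clusters A, B, C and D were called up. Cluster C there summed to 24.1 to 29.7 CPM in KO10_SL and 5.26 and 6.97 CPM in TG2A_ESC. Hoxd9, whose promoter is printed above, had 4.88 and 5.01 CPM in KO10_S2iL and 0.180 and 0.234 CPM in TG2A_S2iL (log2 fold change 4.53 ± 0.77 SE, adjusted p = 0.000463). Hoxa10 had 9.06 and 10.3 CPM in KO10_S2iL and 0.240 and 0.350 CPM in TG2A_S2iL (5.00 ± 0.56 SE, adjusted p = 1.85e-05). Hoxd13 had 7.75 and 7.81 CPM in KO10_S2iL and 0.660 and 0.701 CPM in TG2A_S2iL (3.50, adjusted p = 6.62e-05). In each of these genes every knockout library was far above both wild-type libraries. Hoxb4 had 2.77 and 2.43 CPM in KO10_S2iL and 0.0600 and 0.0584 CPM in TG2A_S2iL (5.30, adjusted p = 2.30e-06). Hoxc9, the only called gene of its cluster, had 3.42 and 3.46 CPM in KO10_S2iL and 0.420 and 0.526 CPM in TG2A_S2iL (2.85, adjusted p = 0.00249). Hoxb9 had about the same level in both groups, with 6.54 and 4.96 CPM in KO10_S2iL and 5.46 and 6.01 CPM in TG2A_S2iL. With 1 library left out the counts were 5, 5, 5 and 4 for cluster A, 1, 3, 1 and 1 for cluster B, 1, 1, 1 and 2 for cluster C, and 5, 3, 3 and 4 for cluster D.

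**Figure D2:**
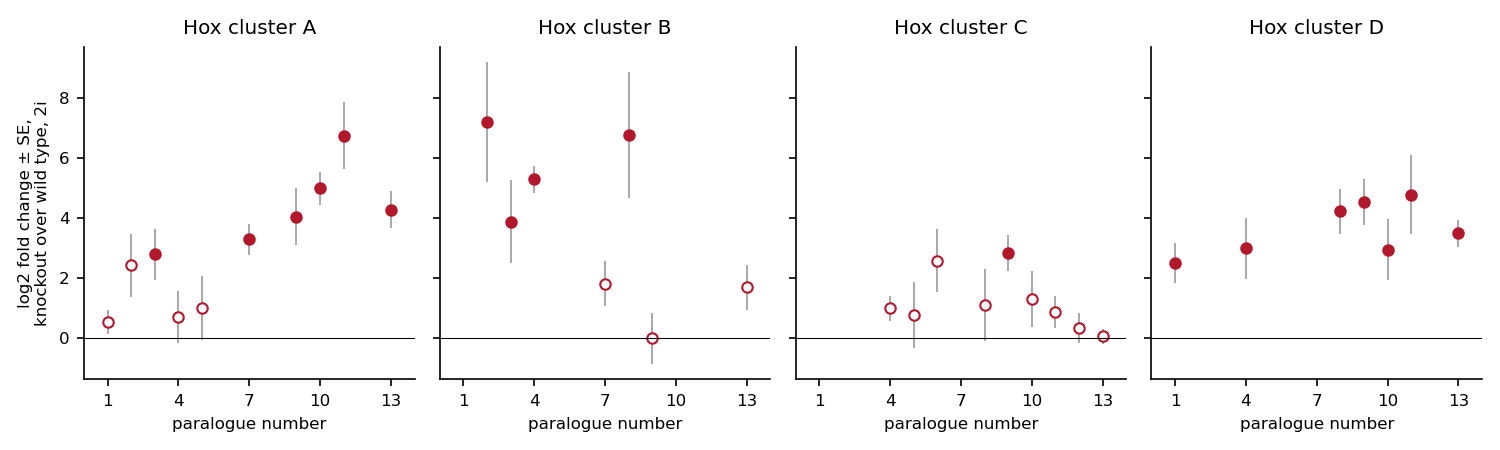
Log2 fold change, KO10_S2iL over TG2A_S2iL (y axis), of each tested Hox gene by its paralogue number (x axis), with bars of 1 SE. Filled points passed an adjusted p of 0.05; all 7 tested genes of cluster D and 1 of 9 in cluster C are filled. Hoxb2 and Hoxb8 had no wild-type counts, so their fitted heights depend on the prior count.

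Of 7 inhibitors of the cell cycle 3 rose and none fell. Cdkn2c, an inhibitor of CDK4 and CDK6, had 4.78 and 5.12 CPM in KO10_S2iL and 0.780 and 0.467 CPM in TG2A_S2iL (log2 fold change 2.98 ± 0.29 SE, adjusted p = 6.29e-06). Its relative Cdkn2d had 21.2 and 18.9 CPM in KO10_S2iL and 10.9 and 10.8 CPM in TG2A_S2iL (0.89, adjusted p = 0.00262). Cdkn1c, an imprinted inhibitor, had 25.1 and 26.6 CPM in KO10_S2iL and 2.04 and 4.20 CPM in TG2A_S2iL (3.04, adjusted p = 0.0111, but 0.117 without TG2A_S2iL replicate 1). Cdkn2a, which encodes p16 and p19Arf, had 41.4 and 41.1 CPM in KO10_S2iL and 19.7 and 19.6 CPM in TG2A_S2iL and was not called (1.07, adjusted p = 0.0616).

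Primitive endoderm regulators were higher in the knockout and stayed at low levels. Some, such as Sox17 and Foxa2, were so low in wild type that they could hardly be called down. Of 10 PrE transcription factors 5 rose and none fell. Gata6, which starts the PrE programme, had 14.5 and 18.2 CPM in KO10_S2iL and 1.74 and 1.34 CPM in TG2A_S2iL (log2 fold change 3.40 ± 0.71 SE, adjusted p = 0.00219). Gata4 had 8.45 and 9.41 CPM in KO10_S2iL and 1.44 and 1.46 CPM in TG2A_S2iL (2.62, adjusted p = 0.0160). Sox17, a later PrE factor, had 3.37 and 2.64 CPM in KO10_S2iL and 0.120 and 0.292 CPM in TG2A_S2iL (3.82, adjusted p = 0.0105). Of these 3, Gata6 alone was called whichever library was left out. The call of Gata4 ended without KO10_S2iL replicate 2 (adjusted p = 0.0625), TG2A_S2iL replicate 1 (0.0969) or TG2A_S2iL replicate 2 (0.0963). The call of Sox17 ended without KO10_S2iL replicate 1 (0.0520), TG2A_S2iL replicate 1 (0.0893) or TG2A_S2iL replicate 2 (0.0566). Over the list, 2, 3, 1 and 1 factors were called with 1 library left out. The summed level of the 10 factors was 46.9 and 51.6 CPM in KO10_S2iL and 17.0 and 18.1 CPM in TG2A_S2iL, while the series' own PrE stem cells (C57_PrESC, n = 2) held 1730 and 1330 CPM.

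Genes of the PrE surface and basement membrane had 6 rises and no fall among 16. Their summed level was 2780 and 2800 CPM in KO10_S2iL and 2380 and 2340 CPM in TG2A_S2iL. Of the 16, 13 were higher in the knockout. Lamc1, with the most counts, was lower and not called, at 26914 counts in KO10_S2iL and 31709 in TG2A_S2iL. The pair Col4a1 and Col4a2, the chains of type IV collagen, had the 2 largest fold changes of the 6 rises. Col4a1 had 169 and 165 CPM in KO10_S2iL and 17.3 and 14.1 CPM in TG2A_S2iL (log2 fold change 3.41 ± 0.38 SE, adjusted p = 1.83e-05). Col4a2 had 119 and 118 CPM in KO10_S2iL and 6.90 and 7.36 CPM in TG2A_S2iL (4.06 ± 0.40 SE, adjusted p = 5.63e-06). The genes lie on opposite strands of chromosome 8 with 20 bases between their annotated starts, and the annotated genes overlap there. Amn, the membrane anchor of the cubilin receptor, had 3.92 and 3.52 CPM in KO10_S2iL and 0.480 and 0.701 CPM in TG2A_S2iL (2.64, adjusted p = 0.00359). Pdgfra, a receptor that marks PrE, was not called at 4.53 and 4.81 CPM in KO10_S2iL and 1.98 and 1.40 CPM in TG2A_S2iL (1.46, adjusted p = 0.0525). The count of 6 became 3 without any 1 of the 4 libraries. Of 7 parietal endoderm genes 4 rose and none fell, with 3, 3, 1 and 3 called when 1 library was left out. Thbd and Tfpi2 of that list were so low in wild type that they could hardly be called down. Fabp3, a fatty acid binding protein, had 248 and 211 CPM in KO10_S2iL and 75.7 and 62.0 CPM in TG2A_S2iL (1.74, adjusted p = 0.00212). Of 11 visceral endoderm genes 7 were tested, none rose and Apom, an apolipoprotein, fell, at 0.151 and 0.155 CPM in KO10_S2iL and 2.28 and 2.45 CPM in TG2A_S2iL (-3.89, adjusted p = 0.00279).

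Few pluripotency genes were called. Of 16 naive pluripotency genes 1 rose and 1 fell, and the median log2 fold change was -0.0047. The rise was Dppa3, a maternal factor that protects DNA methylation in the zygote, with 37.2 and 32.6 CPM in KO10_S2iL and 7.14 and 6.89 CPM in TG2A_S2iL (2.31 ± 0.81 SE, adjusted p = 0.0418). Its call ended with any library left out, at adjusted p of 0.130, 0.0972, 0.173 and 0.180. Nanog had 444 and 484 CPM in KO10_S2iL and 473 and 488 CPM in TG2A_S2iL (adjusted p = 0.902). Esrrb had 839 and 783 CPM in KO10_S2iL and 817 and 759 CPM in TG2A_S2iL (adjusted p = 0.956). Sox2, of the general pluripotency list, had 328 and 351 CPM in KO10_S2iL and 329 and 341 CPM in TG2A_S2iL (adjusted p = 0.944). In these 3 genes the libraries of the groups overlapped. Zfp42, or Rex1, a marker of naive cells, had 384 and 390 CPM in KO10_S2iL and 549 and 559 CPM in TG2A_S2iL (-0.52 ± 0.13 SE, adjusted p = 0.00575). Klf4 was not called at 211 and 217 CPM in KO10_S2iL and 152 and 153 CPM in TG2A_S2iL (0.49, adjusted p = 0.485), and neither was Pou5f1 (-0.49, adjusted p = 0.0679). Of 12 general pluripotency genes 3 fell and none rose. The largest of these falls was Lin28a, an RNA-binding protein that blocks let-7 maturation, with 39.6 and 35.9 CPM in KO10_S2iL and 145 and 141 CPM in TG2A_S2iL (-1.92, adjusted p = 0.0152). Its adjusted p was 0.0774, 0.0942, 0.0564 and 0.0537 with 1 library left out, so its call ended each time, and the list count became 1, 0, 0 and 2.

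The 2-cell-like genes had the highest median change of the 39 lists. Some of them, such as Zfp352, Tcstv3 and Duxf3, were so low in wild type that passing the filter could rest on the knockout. Such genes could hardly be called down, so the ranking and the count are a description. Of 13 listed symbols 12 were in the table, 11 were tested, and all 11 rose, by a median log2 fold change of 4.77. The 11 calls were kept with each of the 4 libraries left out and under the other library scaling. Zscan4c, whose product protects telomeres in the 2-cell-like state, had 97.4 and 95.2 CPM in KO10_S2iL and 3.66 and 3.39 CPM in TG2A_S2iL (log2 fold change 4.77 ± 0.92 SE, adjusted p = 0.00136). Zfp352, a zinc-finger gene active in 2-cell embryos, had 11.02 and 8.58 CPM in KO10_S2iL and 0.0600 and 0.292 CPM in TG2A_S2iL (5.74 ± 0.94 SE, adjusted p = 0.000515). Tcstv3 had 8.05 and 6.98 CPM in KO10_S2iL and 0.120 and 0.117 CPM in TG2A_S2iL (5.91, adjusted p = 0.000113). Duxf3, the symbol of the factor that switches on the programme, had 1.81 and 2.53 CPM in KO10_S2iL and 0.0600 and 0 CPM in TG2A_S2iL (5.90, adjusted p = 0.000723). The knockout libraries agreed closely with each other in these genes and stood far above wild type. The summed level of the list was 476 and 472 CPM in KO10_S2iL and 18.3 and 16.9 CPM in TG2A_S2iL. It was 373 to 415 CPM in KO10_SL, 25.6 and 22.9 CPM in the rescued clone without 2i, at most 25.9 CPM in TG2A_ESC, and 3.32 to 44.2 CPM in E14_ESC. Zscan4, Usp17l and Dux genes are near-identical copies whose reads may be split between them, so the 11 symbols are not 11 separate measurements and single copies are uncertain.

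Some genes of other lineages also rose, where 15.7% of all tested genes did. Members such as Plac1, Pax3 and Hand2 were so low in wild type that passing the filter could rest on the knockout. Genes that low could hardly be called down, so the counts of these lists are a description. Of 10 tested trophoblast genes 7 rose and none fell (3, 4, 2 and 1 with 1 library left out), of 10 neuroectoderm genes 5 rose and none fell (3, 3, 1 and 4), and of 11 streak and mesoderm genes 3 rose and none fell (1 in each case). Hand1, a factor of trophoblast giant cells and mesoderm, had 6.74 and 6.88 CPM in KO10_S2iL and 0.360 and 0.175 CPM in TG2A_S2iL (log2 fold change 4.64 ± 0.72 SE, adjusted p = 0.000266). Cdx2, which specifies trophectoderm, had 6.09 and 5.63 CPM in KO10_S2iL and 1.02 and 0.642 CPM in TG2A_S2iL (2.81, adjusted p = 0.0131), and its call ended without KO10_S2iL replicate 1 (0.0552), TG2A_S2iL replicate 1 (0.0658) or TG2A_S2iL replicate 2 (0.119). Of 18 germline genes 7 rose and 1 fell, with 3, 3, 1 and 3 rises when 1 library was left out. Brdt, a testis bromodomain protein, had 21.1 and 19.02 CPM in KO10_S2iL and 5.10 and 4.91 CPM in TG2A_S2iL (2.00, adjusted p = 0.000189). Sycp3, a protein of the synaptonemal complex, went the other way, with 4.08 and 5.07 CPM in KO10_S2iL and 12.4 and 16.4 CPM in TG2A_S2iL (-1.65, adjusted p = 0.00190). Fibroblast markers summed to 67.3 and 71.1 CPM in KO10_S2iL and 30.4 and 28.7 CPM in TG2A_S2iL. Of the 14 tested, 12 were higher in the knockout, with a median log2 fold change of 1.94, but none was called. Thy1, a surface glycoprotein, had 31.1 and 28.5 CPM in KO10_S2iL and 5.34 and 6.31 CPM in TG2A_S2iL (adjusted p = 0.103), and Dcn was at 0 in all 4 libraries. Macrophage markers summed to 129 and 127 CPM in KO10_S2iL and 125 and 134 CPM in TG2A_S2iL, with Adgre1, Lyz2 and Fcer1g at 0 in all 4. Most of that sum was 1 gene, Laptm5, with 4523 counts in KO10_S2iL and 3965 in TG2A_S2iL, so it says little of the other markers. Of the 7 macrophage markers tested 1 rose, Csf1r, a growth factor receptor, with 34 and 29 counts in KO10_S2iL and 0 in both TG2A_S2iL libraries. It was at least 18.1-fold higher, with 3 counts over the wild-type group as the floor (adjusted p = 0.0213), and its call ended with any library left out, at adjusted p of 0.0635, 0.0548, 0.107 and 0.108. The part of such cells in these results was not tested.

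**Figure D3:**
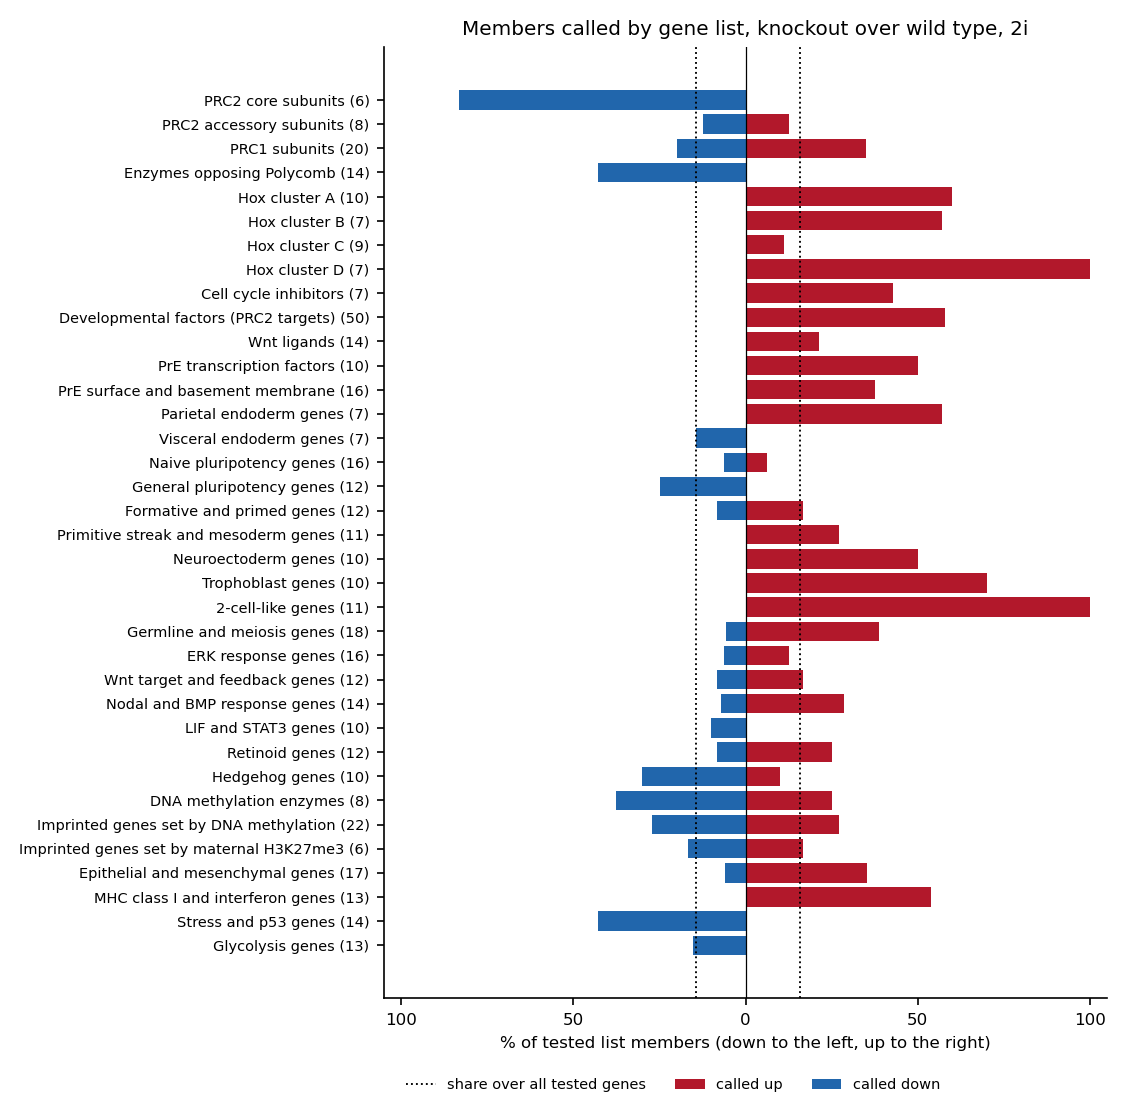
Share of the tested members of each gene list (number tested in brackets) that were called up (red, to the right) or down (blue, to the left) in KO10_S2iL against TG2A_S2iL. Dotted lines mark the shares over all tested genes, 15.7% up and 14.3% down. All 11 tested 2-cell-like genes were called up, and 5 of 6 PRC2 core subunits were called down.

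Some genes of antigen processing and presentation rose, and so did a pair of keratins. Members such as Isg15 and Psmb8 were so low in wild type that they could hardly be called down, so the count is a description. Of 13 tested genes of MHC class I and the interferon response 7 rose and none fell (5, 5, 4 and 4 with 1 library left out). H2-K1, a classical class I heavy chain, had 93.1 and 85.0 CPM in KO10_S2iL and 18.3 and 16.6 CPM in TG2A_S2iL (log2 fold change 2.35 ± 0.18 SE, adjusted p = 6.05e-07). Tap1, a subunit of the peptide transporter, had 19.02 and 18.04 CPM in KO10_S2iL and 3.24 and 2.98 CPM in TG2A_S2iL (2.57 ± 0.50 SE, adjusted p = 0.00128). Psmb9, a subunit of the immunoproteasome, had 8.35 and 4.96 CPM in KO10_S2iL and 0.600 and 0.467 CPM in TG2A_S2iL (3.63, adjusted p = 0.000114). Irf1, a transcription factor of the interferon response, was not called and had 14.5 and 14.3 CPM in KO10_S2iL and 22.7 and 22.5 CPM in TG2A_S2iL. Psmb9 and Tap1 lie head to head on chromosome 17 with 225 bases between their starts, and this interval is shown because both genes beside it rose. It is chr17:34187331-34187555, read on the plus strand, from the start of Psmb9 toward that of Tap1, and its 12 CG are in capitals.
Psmb9-Tap1: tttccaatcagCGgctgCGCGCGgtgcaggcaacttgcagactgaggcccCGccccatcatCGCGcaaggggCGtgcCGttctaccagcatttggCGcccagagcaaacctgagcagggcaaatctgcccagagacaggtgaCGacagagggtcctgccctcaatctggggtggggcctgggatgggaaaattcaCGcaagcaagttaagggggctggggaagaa
Of 17 epithelial and mesenchymal genes 6 rose and 1 fell (2, 4, 2 and 2 rises with 1 library left out). Krt8 and Krt18, the keratin pair of simple epithelia, rose in parallel. Krt8 had 147 and 143 CPM in KO10_S2iL and 31.3 and 32.5 CPM in TG2A_S2iL (2.18, adjusted p = 0.000540), and Krt18 had 102 and 102 CPM in KO10_S2iL and 16.1 and 13.7 CPM in TG2A_S2iL (2.77, adjusted p = 0.000515).

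Imprinted genes, expressed from 1 parental copy, moved both ways. Of 22 genes whose imprint is set by DNA methylation 6 rose and 6 fell, with 3, 3, 1 and 1 rises and 3, 3, 4 and 4 falls when 1 library was left out. Igf2, a fetal growth factor, had 60.3 and 58.0 CPM in KO10_S2iL and 7.44 and 8.41 CPM in TG2A_S2iL (log2 fold change 2.90 ± 0.57 SE, adjusted p = 0.00134). H19, the non-coding RNA beside it, had 49.0 and 43.0 CPM in KO10_S2iL and 6.12 and 5.20 CPM in TG2A_S2iL (3.02, adjusted p = 0.0376). Its call ended with any library left out, at adjusted p of 0.107, 0.0850, 0.155 and 0.180. Meg3, the maternal non-coding RNA of the Dlk1-Dio3 locus, had 1.91 and 1.65 CPM in KO10_S2iL and 16.2 and 13.3 CPM in TG2A_S2iL (-3.04, adjusted p = 0.0187; 0.0988, 0.113, 0.0735 and 0.0508 with 1 library left out). Plagl1, a zinc-finger factor, had 7.35 and 8.68 CPM in KO10_S2iL and 60.6 and 62.2 CPM in TG2A_S2iL (-2.94 ± 0.49 SE, adjusted p = 0.000431). A second class of imprints is set by lysine 27 methylation inherited from the oocyte, and 1 of its 6 tested genes rose and 1 fell. Sfmbt2, which encodes a Polycomb group protein needed in the placenta, had 233 and 239 CPM in KO10_S2iL and 21.1 and 24.0 CPM in TG2A_S2iL (3.39 ± 0.35 SE, adjusted p = 8.68e-06). Gab1, an adaptor of growth factor receptors, had 178 and 184 CPM in KO10_S2iL and 288 and 287 CPM in TG2A_S2iL (-0.66 ± 0.09 SE, adjusted p = 7.16e-05).

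**Figure D4:**
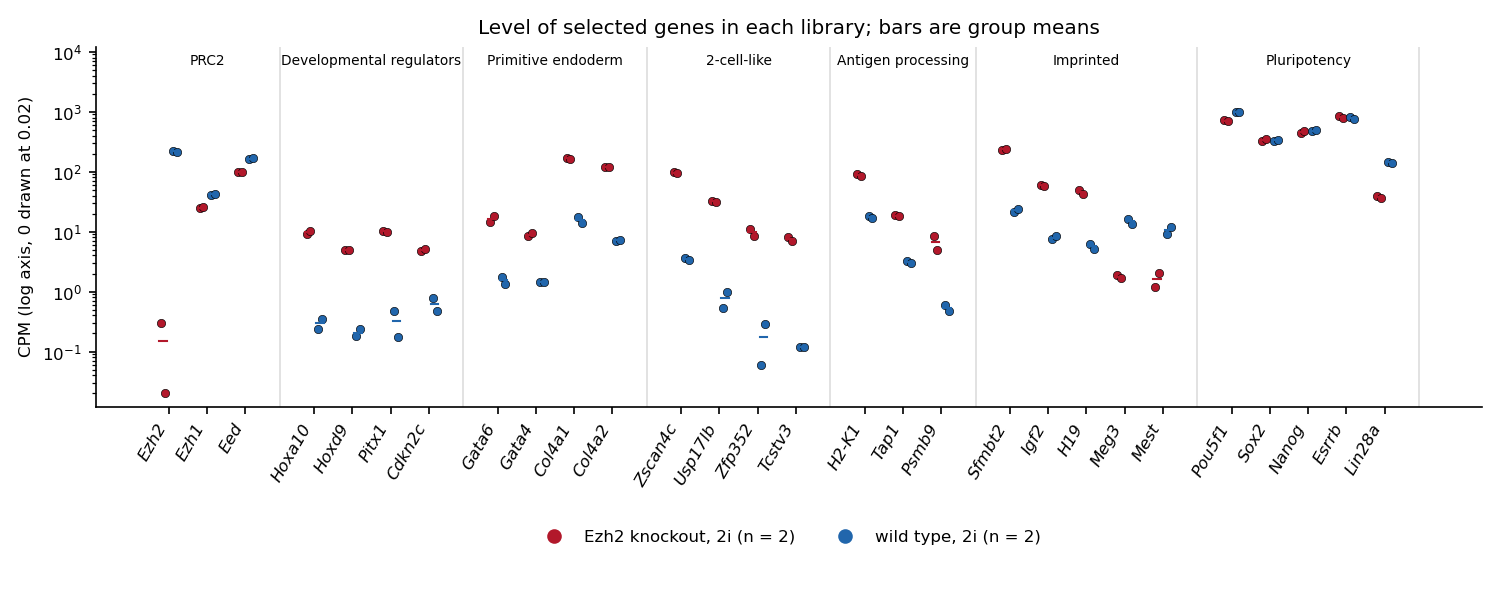
CPM of selected genes (log axis, with 0 drawn at 0.02) in each of the 2 KO10_S2iL libraries (red, left) and the 2 TG2A_S2iL libraries (blue, right), with bars at the group means. Ezh2 is near 0 in the knockout and above 200 CPM in wild type, Sfmbt2 is above 230 CPM in the knockout and below 25 CPM in wild type, and Nanog, Sox2 and Esrrb overlap.

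Signalling lists moved in no single direction. Some listed genes, such as Wnt16 and Bmp2, had no counts in TG2A_S2iL and could hardly be called down. Of 16 ERK response genes 2 rose and 1 fell, a lower share than the 15.7% and 14.3% over all tested genes, and 1 rose with any library left out. The fall was Etv4, an ETS factor induced by FGF signalling, with 20.9 and 20.9 CPM in KO10_S2iL and 81.7 and 80.2 CPM in TG2A_S2iL (log2 fold change -1.95 ± 0.45 SE, adjusted p = 0.00378). Of 10 tested hedgehog genes 3 fell and 1 rose. Gli1, a transcriptional target and effector of the pathway, had 12.02 and 12.8 CPM in KO10_S2iL and 42.2 and 43.6 CPM in TG2A_S2iL (-1.79 ± 0.23 SE, adjusted p = 4.69e-05). Among 12 retinoid genes 3 rose and 1 fell. Aldh1a3, which makes retinoic acid, had 17.1 and 14.8 CPM in KO10_S2iL and 3.06 and 4.03 CPM in TG2A_S2iL (2.17, adjusted p = 0.000832), whereas the receptor gene Rara had 19.9 and 21.8 CPM in KO10_S2iL and 66.3 and 60.7 CPM in TG2A_S2iL (-1.61 ± 0.16 SE, adjusted p = 5.84e-06). Of 12 tested Wnt targets 2 rose and 1 fell, of 14 tested Nodal and BMP response genes 4 rose and 1 fell, and of 10 LIF and STAT3 genes 1 fell. With 1 library left out, the rises among Nodal and BMP genes numbered 2, 3, 1 and 1, and those among Wnt targets 1, 2, 1 and 0. Of 14 tested Wnt ligands 3 rose, which became 1, 1, 0 and 0.

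Stress genes that were called fell, and enzymes of DNA methylation moved both ways. Of 14 stress and p53 genes 6 fell and none rose (3, 5, 6 and 4 with 1 library left out). The falls included Atf4, the factor that drives the amino acid and unfolded protein response, with 179 and 176 CPM in KO10_S2iL and 308 and 311 CPM in TG2A_S2iL (log2 fold change -0.80 ± 0.19 SE, adjusted p = 0.00548). Trib3, a known target of Atf4, had 15.3 and 14.9 CPM in KO10_S2iL and 53.1 and 54.2 CPM in TG2A_S2iL (-1.82, adjusted p = 0.00365). Of 8 enzymes of DNA methylation 3 fell and 2 rose (2 falls and 1 rise with any library left out). Uhrf1, which brings the maintenance methyltransferase to replicated DNA, had 498 and 477 CPM in KO10_S2iL and 785 and 769 CPM in TG2A_S2iL (-0.67 ± 0.12 SE, adjusted p = 0.000579). Tet3, a dioxygenase that oxidises methylcytosine, had 27.2 and 25.9 CPM in KO10_S2iL and 14.5 and 15.1 CPM in TG2A_S2iL (0.84, adjusted p = 0.000418). Of 13 glycolysis genes 2 fell, and none did under the other library scaling or with any library left out.

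The 12 largest rises among called genes of at least 10 CPM in the knockout included 6 predicted gene models. Among the others were Cacna1s, the pore subunit of a skeletal muscle calcium channel, with 29.9 and 28.2 CPM in KO10_S2iL and 0.480 and 0.584 CPM in TG2A_S2iL (log2 fold change 5.75 ± 0.46 SE, adjusted p = 1.07e-06), and Lmx1a, a LIM homeodomain factor of midbrain and roof plate, with 11.97 and 13.8 CPM in KO10_S2iL and 0.120 and 0.350 CPM in TG2A_S2iL (5.73, adjusted p = 1.45e-05). Eif4a3l1, a copy related to the helicase gene Eif4a3, had 147 and 147 CPM in KO10_S2iL and 3.24 and 2.16 CPM in TG2A_S2iL (5.76, adjusted p = 6.06e-05). Its reads may be shared with near-identical genes. Of the predicted models, Gm48423 and Gm48419 had identical counts in every library, so they are not separate measurements. The largest fall after Ezh2 was Fgf17, an FGF ligand, with 0.101 and 0.155 CPM in KO10_S2iL and 11.4 and 12.4 CPM in TG2A_S2iL (-6.47 ± 0.58 SE, adjusted p = 2.92e-06). Sulf1, a sulfatase that edits heparan sulfate at the cell surface, had 5.69 and 6.82 CPM in KO10_S2iL and 38.7 and 36.1 CPM in TG2A_S2iL (-2.58, adjusted p = 0.00109).

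The same clone without 2i gave 4863 called genes against TG2A_ESC (27.7%), 2381 up (13.6%) and 2482 down (14.1%). Of the genes called up under 2i, 1440 were also called up without it, which is 52.3% of the rises under 2i and 60.5% of those without. Of the genes called down, 1267 were shared, or 50.5% and 51.0% of the 2 sets. The comparisons share no library but share the clone and the wild-type line. The TG2A_ESC libraries agreed less closely with each other (Pearson r of log2 CPM 0.979) than those of KO10_S2iL, TG2A_S2iL or KO10_SL. Called in opposite directions were 30 genes that rose under 2i and fell without it and 18 that fell under 2i and rose without it. The difference between the knockout changes in the 2 media was itself called for 343 genes (1.95%), with 147 more positive (0.838%) and 196 more negative (1.12%) under 2i, and 2922 genes had an unadjusted p below 0.05. The 343 became 44 without KO10_S2iL replicate 2, 70 without KO10_S2iL replicate 1, 50 and 58 without TG2A_S2iL replicate 1 or 2, 151 and 146 without KO10_SL replicate 2 or 3, and 109 with a replicate block. With the other library scaling the split turned to 186 more positive and 140 more negative. Gab1 fell in both media but less under 2i, by 0.66 against 2.50 on the log2 scale (difference 1.83 ± 0.12 SE, adjusted p = 6.85e-07). Fgf17 fell more under 2i (-6.47) than without (-1.35), a difference of -5.12 ± 0.70 SE (adjusted p = 0.00207). None of the 11 2-cell-like genes differed between media by this test, and all 11 were called up in each. For PrE transcription factors 5 were called up under 2i and 8 without it, and none of the 10 differed at this threshold. Their summed level was 46.9 and 51.6 CPM in KO10_S2iL and 160 to 191 CPM in KO10_SL, against 21.4 and 37.8 CPM in TG2A_ESC. Of the 16 PrE surface and basement membrane genes, 6 were called up under 2i and 11 without it. Their median log2 fold change was 0.656 under 2i and 2.33 without it, and 2 of the 16 differed at this threshold.

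**Figure D5:**
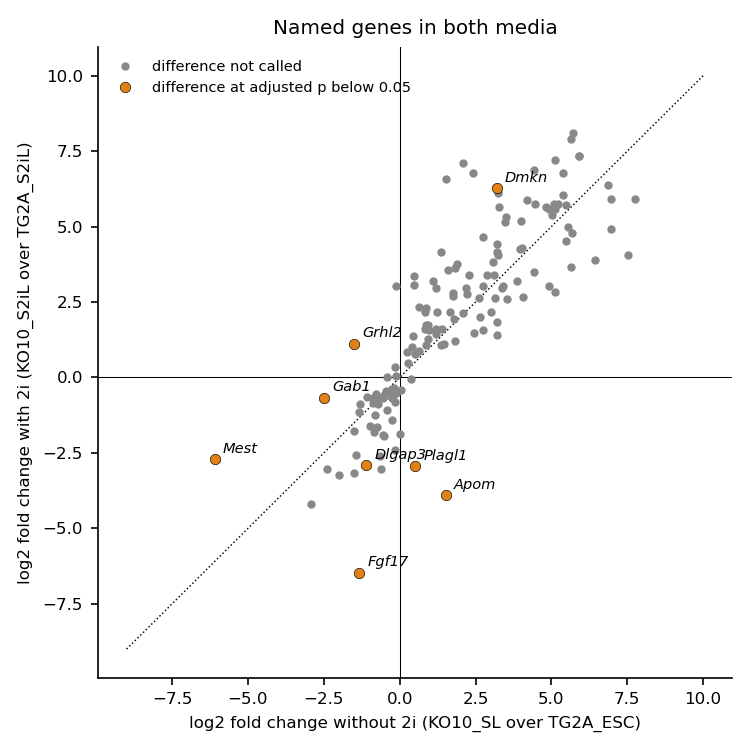
Log2 fold change of the named genes other than Ezh2 without 2i (KO10_SL over TG2A_ESC, x axis) and with 2i (KO10_S2iL over TG2A_S2iL, y axis), with the dotted line at equal change. Orange points are the 8 genes whose difference passed an adjusted p of 0.05. Apom, Plagl1 and Grhl2 lie on opposite sides of 0 in the 2 media, but Apom and Plagl1 were low and not called without 2i. Grhl2 differed between the TG2A_ESC libraries, at 25.6 and 9.85 CPM.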

How the data were processed

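RNA-seq was measured in 22 mouse libraries, of which 4 carry the main comparison. Per the submitters' processing notes, reads were handled with STAR 2.7.6a, Trim Galore and DESeq2 against mm10. Which counter, gene models and strand setting were used is not given in the sources used here. Deposited by the authors was 1 table of estimated counts for 55367 gene symbols, unscaled. Between 5.90 and 6.76% of symbols in the 4 libraries held fractional values, and these carried 29.9 to 31.1% of all counts, so the deposited values were rounded to whole numbers, where the plan had expected raw counts. The labels name polyA RNA and an rRNA depletion kit, so the RNA selection is uncertain. RNAs without a polyA tail summed to 3.97 and 2.79 CPM in KO10_S2iL and 3.72 and 3.15 CPM in TG2A_S2iL.

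Counts were modelled with edgeR 4.0.16 in R 4.3.3: filterByExpr over the 10 groups, TMM scaling, and a quasi-likelihood fit of all 22 libraries with 12 residual degrees of freedom. Changes are knockout over wild type, and the difference between media is a contrast in the same fit. SE was derived from the log2 fold change and its F statistic. Where the wild-type group had 0 counts, a fold was bounded by taking 3 counts for that group. Replicates agreed at a Pearson r of 0.990 in KO10_S2iL and 0.989 in TG2A_S2iL (log2 CPM across genes, which are not independent). Without 2i the lowest r was 0.989 in KO10_SL and 0.979 in TG2A_ESC. No pair of libraries agreed within sampling noise. The fit was tested on simulated counts with known changes. Alternatives were RLE scaling, no filter, only the compared groups, DESeq2 1.42.0, each library left out, a replicate block, and, chosen after seeing the data, only symbols with whole-number values. Promoters came from RefSeq.

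The members and the 39 gene lists (542 symbols, 525 in the table, 484 tested) were chosen with earlier results of these data known. Named were landmark genes, the called members with the largest change in each list (at most 4), members against their list's direction, and the 12 largest rises and falls of at least 10 CPM with no overlap between libraries. Igf2, H2-K1, Tap1, Zscan4c, Hoxb9, Rbbp7, Thy1, Irf1, Laptm5 and the markers at 0 were outside this rule and were chosen after their values were seen.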

Additional observations from a re-analysis of the deposited data

Results flagged for a closer look

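For 8 named genes the knockout change under 2i (KO10_S2iL over TG2A_S2iL) differed from that without 2i (KO10_SL over TG2A_ESC) by the edgeR test of the difference itself, at an adjusted p below 0.05 over all tested genes. The log2 difference was 1.834 for Gab1 (adjusted p = 6.85e-07) and -5.122 for Fgf17 (adjusted p = 0.00207), and these 2 passed under every alternative run. It was 3.07 for Dmkn, which encodes a secreted epidermal protein, with rises of 6.27 under 2i and 3.20 without (adjusted p = 0.0119). It was 2.622 for Grhl2, an epithelial transcription factor that rose under 2i and fell without it (adjusted p = 0.0119). It was -5.403 for Apom (adjusted p = 0.0191), -3.438 for Plagl1 (adjusted p = 0.0313), -1.816 for Dlgap3, a postsynaptic scaffold gene (adjusted p = 0.0229), and 3.406 for Mest, an imprinted gene (adjusted p = 0.0299).

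Apom and Plagl1 were called under 2i and not without it, and the log2 fold change of Mest was -2.696 under 2i and -6.10 without it. Without 2i Plagl1 averaged 0.740 CPM in KO10_SL and 0.521 CPM in TG2A_ESC, and Apom 1.20 and 0.417 CPM. A fall of Apom or Plagl1 without 2i could hardly be seen at these levels. For Grhl2 the TG2A_ESC libraries differed from each other, at 25.6 and 9.85 CPM, and KO10_SL averaged 6.26 CPM. Its log2 difference between media was 1.80 without TG2A_ESC replicate 1 and 3.19 without TG2A_ESC replicate 2. The adjusted p of the difference was at or above 0.05 in at least 1 fit with a library left out for Dmkn, Grhl2, Apom, Plagl1, Dlgap3 and Mest, the highest being 0.0900, 0.0859, 0.119, 0.138, 0.133 and 0.211 in that order of genes. With the replicate block it was 0.0729 for Apom, 0.0789 for Plagl1, 0.0676 for Dlgap3 and 0.114 for Mest.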

How the results depend on the processing

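The count of 5263 genes called in KO10_S2iL against TG2A_S2iL was 5046 with RLE scaling (2969 up, 2077 down), 5151 without a filter (3334 up, 1817 down), 5284 with DESeq2 and 4166 over symbols with whole-number values, and rose to 9607 when only the 2 groups were fitted. It was 2847 to 3156 with 1 library left out. Members of the gene lists called up numbered 147, and 66 to 95 with 1 library left out; those called down numbered 50, and 31 to 35. RLE scaling moved the median log2 fold change of all genes to 0.06. For KO10_SL against TG2A_ESC the counts were 3333 to 5767 over all alternatives. The 343 genes that differed between media became 923 without a filter, 1795 with only the compared groups, 992 with DESeq2, and 44 to 386 with 1 library left out. Of 148 named genes called, 76 kept their call in every alternative, and the losses came mostly from leaving out a library. Uncalled genes changed sign: Nanog to 0.005306 without a filter, and with 1 library left out Sox2 ran from -0.04339 to 0.05159 and Esrrb from -0.02446 to 0.07713.

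With the replicate block 4870 genes were called under 2i, 3715 without 2i and 109 for the difference. The numbers were not taken as pairs, since the deviations of same-numbered libraries correlated at r = 0.0212 across genes in the 2 pairs. Of the 525 listed symbols with counts deposited, 484 were tested, and the others were too low at this depth.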

Other observations

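By chromosome, among 9811 genes of at least 10 CPM, chromosome 14 stood lowest of the autosomes with a median log2 fold change, KO10_S2iL over TG2A_S2iL, of -0.29, against -0.11 over all such genes. On it 121 of 308 genes were called down (39.3%), against 23.2% over all chromosomes. Without 2i the median of chromosome 14 was -0.18, against -0.07 over all. This was seen in the data and has no test.

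Gm5537, noticed after its values were seen, had 457 counts in TG2A_S2iL replicate 2 and 0 in the other 3 libraries, and was not called (adjusted p = 0.219).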
